A study of Mus musculus with 63 samples.

Results

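The 10 genes described here are markers that neurobiologists use for neurons in general, namely Tubb3, Stmn2, Rbfox3, Uchl1, Nefl, Nefm, Map2, Mapt, Map1b and Tuba1a. They are 10 of the 20183 protein-coding genes in the deposited table of FPKM values, which are reads scaled by gene length and library size. They were chosen by symbol, and several of them because earlier work on the same values showed a high mean FPKM in light-sensitive (LS) cells, while Map2 was included because its mean ran the other way. The means of LS and NS cells are therefore what chose the genes, and the values below describe them and support no claim about the groups.

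Each sample was 1 soma drawn into a pipette from V1, the primary visual cortex, at the depth of layer 2/3, of a lightly anesthetized wild type C57BL/6 mouse aged 70 days, after loading of the tissue with the calcium dye Cal-520 AM. Cells labeled LS (light sensitive) had a calcium rise at most of the repeated light presentations, and cells labeled NS at nearly none; both groups shared strain, genotype, age, dye and anesthesia. The table holds 46 LS and 17 NS cells, of which the quality filters stated by the study left 35 LS and 12 NS cells here. The dye enters any cell type, the labels do not name the mouse or the day of a cell, and each group was therefore taken as 1 sample, with no test between groups; each SD is the spread between cells, and intervals cover counting error only.

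Neurons keep their long processes on a skeleton of microtubules and neurofilaments. Microtubules are built from alpha and beta tubulin (Tuba1a, Tubb3), bundled by microtubule-associated proteins (Map2 in dendrites and soma, tau from Mapt in axons, Map1b in growing and adult processes), and taken apart with the help of stathmins (Stmn2). Neurofilaments made from Nefl and Nefm set the caliber of axons, Rbfox3 encodes the nuclear splicing regulator stained as NeuN, and Uchl1 encodes PGP9.5, a very abundant ubiquitin hydrolase of neurons.

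In the GENCODE M21 annotation of GRCm38 the tubulin genes lie at chr8:123411424-123422015 (Tubb3, plus strand) and chr15:98949837-98953703 (Tuba1a, minus strand), and Stmn2 at chr3:8509360-8561606 (plus). The microtubule-associated genes lie at chr1:66175273-66442583 (Map2, plus), chr11:104231390-104332090 (Mapt, plus) and chr13:99421446-99516540 (Map1b, minus). Nefl lies at chr14:68083863-68089095 (plus) within the span of Nefm at chr14:68082590-68124846 (minus), Rbfox3 at chr11:118489762-118911597 (minus) and Uchl1 at chr5:66676091-66687234 (plus). The values count reads over the exons of these genes. Gm20388, a protein-coding model on the same strand, overlaps Tubb3, Gm49450 overlaps Tuba1a in the same way, and Uchl1 has the antisense gene Uchl1os. How reads in such overlaps and their strand were treated is not given in the sources used here, and values of these genes are uncertain to that extent.

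The start regions of 3 of the genes are shown because Tubb3 and Map2 stood at the ends of the range of LS to NS ratios below and the window of Map1b held no base of the annotated gene. They come from the RefSeq promoter table (GRCm38.p6), which matched 6 of the 10 genes, and end before the first base of the gene in GENCODE M21. GC boxes, searched as GGGCGG and its reverse complement CCGCCC, are in capitals. The stretches are chr8:123411303-123411423 on the plus strand, chr1:66175079-66175272 on the plus strand and chr13:99516603-99516852 on the minus strand, each written 5′ to 3′.
Tubb3: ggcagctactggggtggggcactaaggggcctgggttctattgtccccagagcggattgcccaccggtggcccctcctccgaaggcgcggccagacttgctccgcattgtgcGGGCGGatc
Map2: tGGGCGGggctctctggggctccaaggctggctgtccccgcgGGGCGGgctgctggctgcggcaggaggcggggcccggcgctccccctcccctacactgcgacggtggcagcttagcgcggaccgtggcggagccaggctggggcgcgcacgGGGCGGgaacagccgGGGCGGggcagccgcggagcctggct
Map1b: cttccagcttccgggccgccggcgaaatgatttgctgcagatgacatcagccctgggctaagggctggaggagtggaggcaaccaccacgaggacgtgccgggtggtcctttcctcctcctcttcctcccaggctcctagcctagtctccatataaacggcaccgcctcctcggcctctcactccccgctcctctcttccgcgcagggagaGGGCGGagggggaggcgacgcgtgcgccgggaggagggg

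Over the full window of 250 bases before the RefSeq start, Map2 held 5 GC boxes, Tubb3 held 2, and Map1b and Tuba1a held 1 each, while the windows of Uchl1 and Rbfox3 held none. All 250 bases of the Rbfox3 window lie inside the annotated gene, so that window is not upstream of the whole gene. A GC box was found in 4 of these 6 windows and in 32.7% of 32851 windows of the same length. Map2, Tubb3, Map1b, Tuba1a, Uchl1 and Rbfox3 had 34, 21, 19, 11, 7 and 3 CG pairs in their windows, beside a median of 6 over all windows. The letters describe the windows only, since no binding or methylation was measured.

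Library depth and background differed between the groups and are given first because every value below rests on them. Reads on the listed genes, recovered from the steps of the FPKM values, ran from 358773 to 2508441 per LS cell (median 869451) and from 145355 to 877940 per NS cell (median 312889). Odorant receptor genes (806 symbols starting with Olfr) belong to the nose, and their mean FPKM served as a level of background reads. The mean is per length, but it includes Olfr genes without a read. The median LS cell had a read of 6 Olfr genes and the median NS cell of 48.5. A gene with a read therefore often lies above the mean, and the highest single Olfr gene is used below as a stricter limit. This mean was 0.256 FPKM in the median LS cell (range 0 to 3.32) and 4.53 FPKM in the median NS cell (range 0.126 to 24.04). It lay below 1 FPKM in 31 of 35 LS cells and in 3 of 12 NS cells, namely NS_13, NS_14 and NS_16. Genes above 1 FPKM numbered 1640 to 9980 per LS cell (median 5890) and 1884 to 7211 per NS cell (median 3061.5), and the mitochondrial share of reads had medians of 2.17% (0.848 to 12.1%) and 1.29% (0.265 to 9.17%). One further library stood apart, NS_12, the deepest NS library used at 877940 reads. Of its gene values under 40 reads, 9.27% were odd numbers, so most of its reads came in even numbers. LS cells had 52.2% to 60.4%, and the other NS cells used had 54.4% (NS_8) to 67.9% (NS_11). NS_2, NS_13 and NS_14, at 61.9%, 66.0% and 64.3%, also lay above the LS range. No cells shared identical values (0 pairs).

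Most LS cells held reads of nearly all 10 genes, and most NS cells held reads of few. The number of the 10 genes with a read was 8.89 ± 1.88 (SD, n = 35 cells) in LS cells, with a lowest of 2, a median of 9 and a highest of 10. It was 3.83 ± 2.25 (SD, n = 12 cells) in NS cells, with a lowest of 0, a median of 4 and a highest of 8. The groups overlapped through 3 LS cells with few genes (LS_43 with 2, LS_13 and LS_39 with 4 each) and 1 NS cell with 8 (NS_16). Overall detection was lower on the same side in part. LS_43 and LS_39 had the fewest genes above 1 FPKM of the LS cells, 1640 and 2207, and LS_43 had the highest mitochondrial share. The NS median was below the LS median, as given above. Other cells went the other way: NS_8 and NS_9 had 7211 and 6154 genes above 1 FPKM but 6 and 4 of the 10 genes. LS_34 had 9 of the 10 genes with 3288 genes above 1 FPKM, fewer than LS_13 with 3786. NS_6 and NS_16 had 3754 and 3499 genes above 1 FPKM. The part of overall detection in the group difference was not tested. In 17 of 35 LS cells all 10 genes had a read, a share of 48.6% (95% interval from the exact binomial distribution 31.4 to 66.0%), while 0 of 12 NS cells did (interval up to 26.5%). In NS_6, the shallowest library used, none of the 10 genes had a read.

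With each cell thinned to 140000 reads by exact expectation, LS cells were expected to show 8.52 genes and NS cells 3.51. Thinning treats amplified reads as independent and does not act on molecules missed before amplification, so the part of depth in the group difference is not settled by it. In NS cells the count was higher at low background in part. The 3 NS cells with a mean Olfr level below 1 FPKM had 4, 5 and 8 of the genes. In the other 9 NS cells the number ran from 0 to 6 around a median of 3. Among these 9, NS_8 and NS_12 held 6 genes each, more than NS_13 with 4 and NS_14 with 5. Depth differed along with background: NS_13, NS_14 and NS_16 had 373309, 658488 and 613630 reads. Of the other 9, only NS_9 and NS_12, at 411142 and 877940 reads, were deeper than NS_13. The parts of depth and background in this split were not tested. In LS cells the count was not higher at low background: the 31 cells below 1 FPKM had 2 to 10 genes around a median of 9, and the 4 cells at or above it 8 to 10 around a median of 9.5. Against a stricter limit, the highest single Olfr gene of the same cell, 4.03 of the 10 genes stood above it in the average LS cell and 0.50 in the average NS cell. The part of background in the group difference was not tested.

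**Figure D1:**
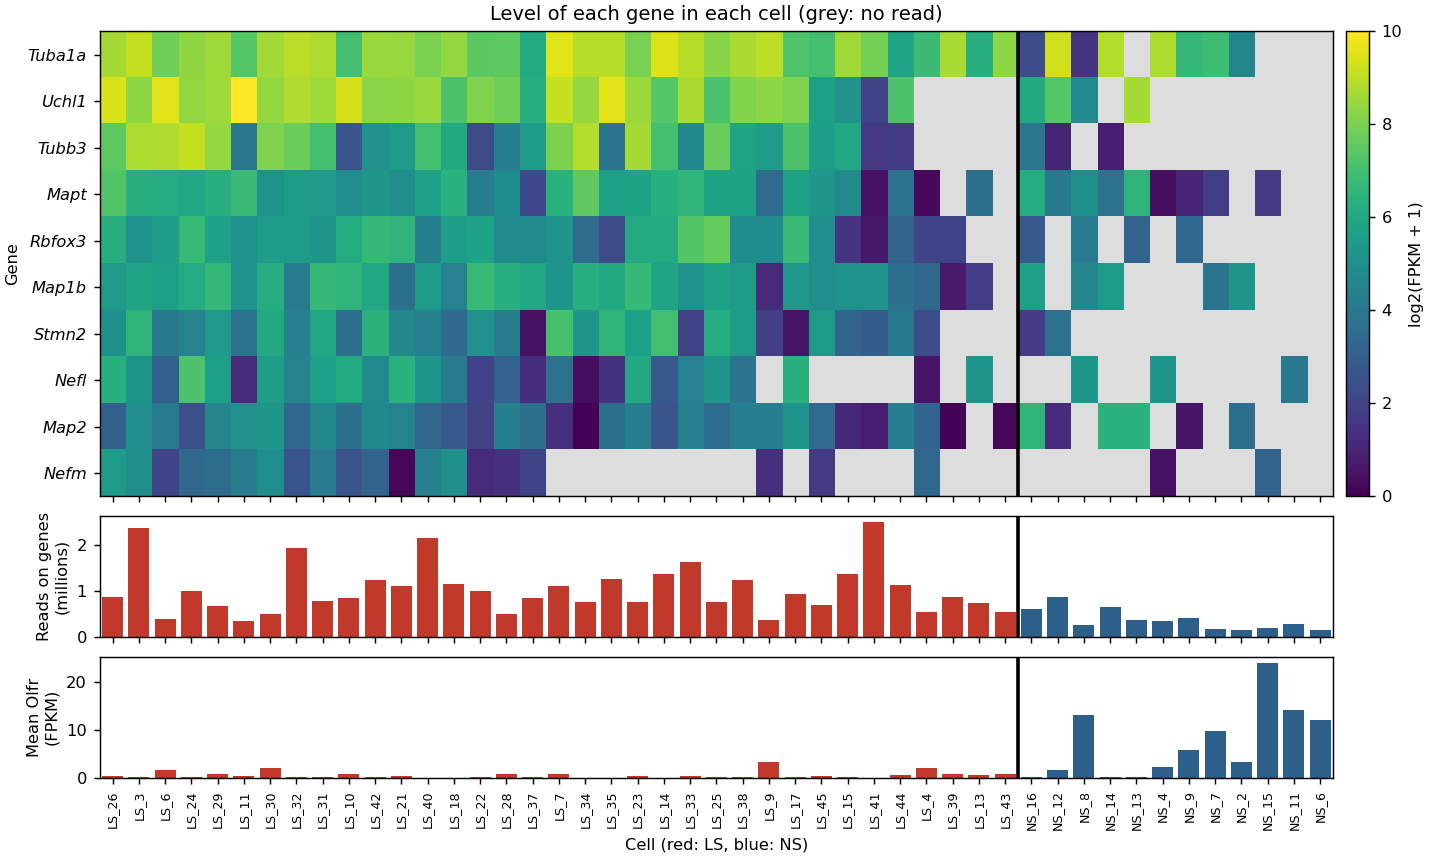
The upper panel gives log2(FPKM + 1) of the 10 genes (rows, by mean level in LS cells) in 35 LS and 12 NS cells (columns, by number of genes with a read), with grey for no read. The lower panels give reads on genes and the mean FPKM of 806 Olfr genes per cell; NS columns are mostly grey, and their background bars reach 24.04 FPKM against 3.32 in LS cells.

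**Figure D2:**
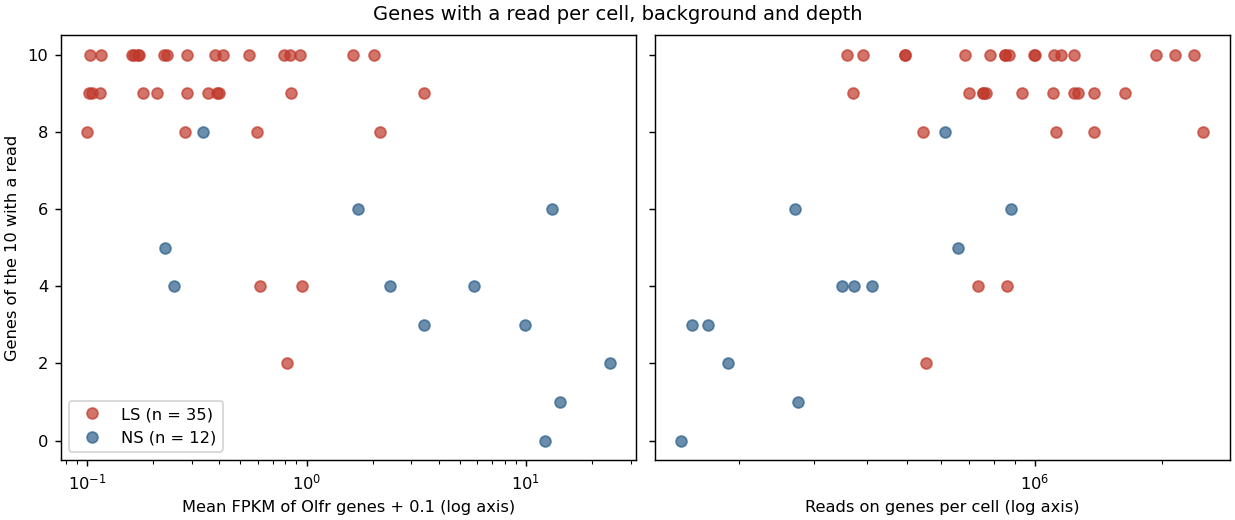
Each point is 1 cell, with the number of the 10 genes with a read on the y axis and, on log x axes, the mean FPKM of Olfr genes plus 0.1 (left) or the reads on genes (right). LS cells sit at 8 to 10 genes apart from 3 cells at 2 or 4, and NS cells sit at 0 to 8.

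By mean FPKM, 9 of the 10 genes were more than 2-fold higher in LS than in NS cells and none was more than 2-fold lower. These are the values that chose the genes; over all 19515 genes detected in a cell used, 38.6% were past 2-fold toward LS and 36.3% toward NS. Of the genes detected in at least 50% of LS cells, as all 10 were, 44.2% were past 2-fold toward LS, and of genes at 1 FPKM or more in either group 33.8%. Past 4-fold toward LS there were 5 of the 10 genes and 29.5% of all genes. The share of cells with a read was at least 25 percentage points higher in LS cells for 9 of the 10 genes, Mapt being the other, and for 31.5% of all genes. A gene with a read in fewer than 25% of LS cells cannot reach that gap. All 10 genes had a read in at least 50% of LS cells, so the 31.5% is not a like comparison. The median log2 ratio of the 10 genes was 2.19, beside 0.06 for all genes.

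**Figure D3:**
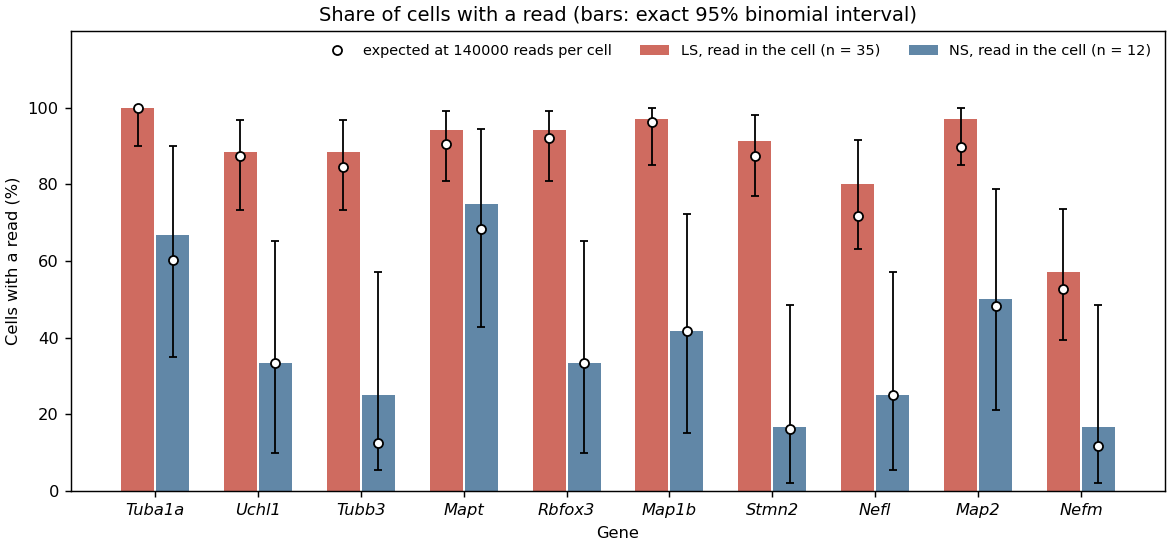
Bars give the percentage of cells with a read for each gene in LS (n = 35) and NS (n = 12) cells, lines the exact binomial 95% interval and open circles the expected percentage at 140000 reads per cell. The widest gap between bar and circle is that of Tubb3 in NS cells, 25% against 12.5%.

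Tubb3, the neuron-specific beta tubulin stained as TUJ1, had the highest ratio of the 10. Its FPKM in LS cells had a lowest of 0, a median of 56.6 and a highest of 545 (LS_24), and in NS cells a lowest and a median of 0 and a highest of 14.6 (NS_16). It had a read in 31 of 35 LS cells and in 3 of 12 NS cells, and the other 2 NS cells with a read, NS_12 and NS_14, held 2 reads and 1 read. The group means of 136.6 ± 162 and 1.36 ± 4.19 FPKM (SD between cells) gave a log2 ratio of 6.65, and 89.6% of the NS sum came from NS_16. Without NS_16 the log2 ratio was 9.79. With all 63 cells it was 2.84, since NS_17, a cell outside the filters with reads of all 10 genes, had 267 FPKM of Tubb3.

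Tuba1a, the main alpha tubulin of developing and adult neurons, alone among the 10 genes had a read in every LS cell. Its FPKM ran from 55.5 over a median of 344 to 724 (LS_7) in LS cells, and from 0 over a median of 13.4 to 617 (NS_12) in NS cells. It had a read in 8 of 12 NS cells, and NS_4, NS_12 and NS_14, at 438, 617 and 456 FPKM, each exceeded at least 27 of the 35 LS cells. The groups thus overlapped, with means of 328 ± 171 and 147 ± 223 FPKM and a log2 ratio of 1.16, or 1.66 without NS_12. The coding sequences of the alpha tubulins are nearly the same, so reads may be split among them, and the value of Tuba1a is uncertain to that extent.

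Of 13 other tubulin and tubulin-folding genes, 11 were past 2-fold toward LS and 1 toward NS, beside 38.6% and 36.3% of all genes, with a median log2 ratio of 2.06. Tubb4b (136 and 21.4 mean FPKM in LS and NS cells), Tubb5 (182 and 17.7) and Tubb2a (186 and 32.8) were higher in LS cells. Tuba8 and Tubg1 had a read in 6 and 19 LS cells and no read in any NS cell. Tubb2b, a beta tubulin of immature neurons and glia, was past 2-fold toward NS at 2.23 and 30.03 mean FPKM, detected in 6 LS and 4 NS cells, and Tbcb, a tubulin-folding cofactor, had a mean of 44.9 in LS and 53.7 FPKM in NS cells.

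Map2 was the gene whose mean was lower in LS cells. Its FPKM ran from 0 over a median of 11.5 to 37.7 (LS_30) in LS cells, and from 0 over a median of 0.243 to 92.1 (NS_16) in NS cells. It had a read in 34 of 35 LS cells and in 6 of 12 NS cells, so that the share of cells with a read and the mean pointed in opposite directions. The 3 NS cells with low background, NS_13, NS_14 and NS_16, held 81.6, 82.1 and 92.1 FPKM from 595, 1073 and 1109 reads, each above all 35 LS cells. The highest single Olfr gene of these 3 cells stood at 22.9, 88.2 and 168 FPKM. Against that stricter limit, Map2 stood above in 1 NS cell, NS_13, and in 5 LS cells. The other 9 NS cells had at most 11.7 FPKM, and 6 of them had no read. Means of 13.3 ± 10.6 and 22.4 ± 38.1 FPKM gave a log2 ratio of -0.75, and leaving out any 1 cell kept it between -0.88 and -0.27.

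The direction for Map2 depended on how cells were summarized. Pooled reads gave -1.37 (34.8% of all genes past 2-fold toward NS) and cells with a mean Olfr level below 1 FPKM gave -2.78, whereas the difference of means of log2(FPKM + 1) was 1.17, that of log2(FPKM + 0.1) was 2.54, and the ratio of medians was 5.56 on the log2 scale. Cells with more excitatory than inhibitory markers gave 5.92, because both such NS cells, NS_8 and NS_9, held 0 and 0.486 FPKM. In all, 4 of 13 alternative settings put Map2 higher in LS cells.

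Mapt, which encodes tau, had a read in more NS cells than any other of the 10 genes. Its FPKM ran from 0 over a median of 43.9 to 186 (LS_34) in LS cells and from 0 over a median of 2.43 to 89.3 (NS_13) in NS cells, with a read in 33 of 35 and 9 of 12 cells. In 5 of these 9 NS cells Mapt stood above the mean Olfr FPKM of the cell, while NS_4, NS_7, NS_9 and NS_15 held 1 to 4 reads below it. Tuba1a stood above it in 7 NS cells. Against the highest Olfr gene of the cell, Mapt stood above in 1 NS cell and Tuba1a in 3. NS_13 and NS_16, at 89.3 and 72.7 FPKM, lay above 31 and 26 of the 35 LS cells. The means of 50.3 ± 42.1 and 18.9 ± 30.6 FPKM gave a log2 ratio of 1.42, which became 2.01 without NS_13. Within cells with a mean Olfr level below 1 FPKM the ratio was -0.13, from means of 53.2 in 31 LS cells and 58.1 in 3 NS cells, and where inhibitory markers were higher it was -0.0515. In the latter cells 1 of the 10 genes, Map2, was past 2-fold toward NS, as were 42.4% of all genes.

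Map1b, a long microtubule-associated protein of axons and dendrites, had a read in 34 LS cells and 5 NS cells. Its FPKM ran from 0 over a median of 43.99 to 105 (LS_22) in LS cells and from 0 over a median of 0 to 50.9 (NS_16) in NS cells. NS_14 and NS_16 again held the most reads, 398 and 442, at 42.3 and 50.9 FPKM, values near the LS median. The means of 46.9 ± 31.3 and 13.7 ± 19.2 FPKM gave a log2 ratio of 1.78, and 0.64 among cells of low background.

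Of the 17 other microtubule-associated and stathmin genes, 6 were past 2-fold toward LS, 2 toward NS and 9 within, beside 38.6% and 36.3% of all genes past 2-fold, and their median log2 ratio of 0.20 lay near that of all genes. Map1a, a dendritic relative of Map1b, had means of 9.52 and 29.4 FPKM, with a read in 31 LS and 9 NS cells. Dcx, known from migrating neurons, had 2.27 ± 4.44 and 5.98 ± 16.6 FPKM (SD), with a read in 21 LS and 3 NS cells. Map6, a microtubule stabilizer, stood at 11.7 and 3.65. The tubulin and the microtubule-associated lists therefore had unlike counts, 11 of 13 against 6 of 17 past 2-fold toward LS, which is a description and was not tested.

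Stmn2, a neuron-specific stathmin that binds free tubulin, was seen in 32 LS cells and 2 NS cells. Its FPKM ran from 0 over a median of 19.9 to 134 (LS_7) in LS cells, and NS_12 (12.6 FPKM, 74 reads) and NS_16 (2.44 FPKM, 10 reads) were the NS cells with a read. Both values lay within the LS range, and 13 and 5 of the 35 LS cells were below them. The means of 34.3 ± 36.1 and 1.25 ± 3.65 FPKM gave a log2 ratio of 4.77, or 7.27 without NS_12, the library with mostly even read numbers. The relatives Stmn1, Stmn3 and Stmn4 had means of 153, 493 and 48.6 FPKM in LS cells and 26.6, 127 and 0.9899 in NS cells.

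The neurofilament genes were the least often seen of the 10 in LS cells. Nefl, the light chain, was detected in 28 LS and 3 NS cells, with a median of 12.96 and a highest of 147 FPKM (LS_24) in LS cells. NS_4, NS_8 and NS_11 held 35.5, 37.7 and 15.1 FPKM, above 24, 25 and 18 of the LS cells. The log2 ratio was 1.89 from means of 27.2 ± 33.8 and 7.36 ± 14.3 FPKM, 2.503 without NS_4 and 2.57 without NS_8. It was 0.24 with all 63 cells, in which NS_3 held 171 FPKM, and it was -0.74 among cells with higher inhibitory markers. The latter rested on 1 of 4 LS cells, at 5.99 FPKM, and 1 of 6 NS cells, NS_11. NS_11 held 17 reads of Nefl at a mean Olfr level of 14.2 FPKM.

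Nefm, the medium chain, had a read in 20 of 35 LS cells and in 2 NS cells. Its LS values ran from 0 over a median of 1.52 to 42.9 FPKM (LS_26), and NS_4 and NS_15 held 0.415 and 8.13 FPKM from 1 and 11 reads. Both NS values were below the mean Olfr FPKM of their cells, 2.31 and 24.04. The log2 ratio of 3.32 (means of 7.10 ± 11.2 and 0.712 ± 2.34 FPKM) was 7.56 without NS_15. Nefl and Nefm lie side by side on chromosome 14 on opposite strands with overlapping spans, as given above.

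Of the other 5 intermediate filament genes, Ina, which joins neurofilaments in cortical neurons, had means of 37.5 in LS and 2.32 FPKM in NS cells. Vim stood at 36.97 and 13.8, and Prph had a read in only 2 cells, both LS. Nefh, the heavy chain, and Nes, known from neural progenitors, were higher in NS cells at 6.47 and 16.7 and at 0.629 and 18.9 FPKM.

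Rbfox3 was seen in 33 LS cells and 4 NS cells. Its FPKM ran from 0 over a median of 33.3 to 199 (LS_25) in LS cells, and in NS cells the 4 values were 16.7 (NS_8), 9.28 (NS_9), 7.76 (NS_13) and 6.10 (NS_16). All 4 lay in the lower range of LS cells, with 7 to 9 of the 35 LS cells below them. The means were 47.8 ± 45.8 and 3.32 ± 5.48 FPKM, for a log2 ratio of 3.85, or 4.51 without NS_8. All 12 alternative settings with a finite value kept it between 2.01 and 5.55. Among 10 related RNA-binding genes, 6 were past 2-fold toward LS and none toward NS, beside 38.6% and 36.3% of all genes. Its paralog Rbfox1 had means of 46.9 and 10.97 FPKM and Rbfox2 15.8 and 10.6.

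Uchl1 had the highest single value of the 10 genes, 1002 FPKM in LS_11. It ran from 0 over a median of 311 FPKM in LS cells, with a read in 31, and had a read in 4 NS cells, at 26.1 (NS_8), 162 (NS_12), 402 (NS_13) and 66.1 FPKM (NS_16). NS_13 lay above 27 of the 35 LS cells. The means of 309 ± 244 and 54.7 ± 119.5 FPKM gave a log2 ratio of 2.498, and 3.74 without NS_13, which held 61.3% of the NS sum. In cells with higher inhibitory markers the log2 ratio was 0.28. Of 6 ubiquitin genes set beside it, 5 were past 2-fold toward LS, beside 38.6% of all genes. Ubb, a ubiquitin precursor, had means of 1098 and 274 FPKM. Uchl3, a relative of Uchl1, had means of 27.3 and 0.123 FPKM, the NS mean resting on 1 read in 1 cell, and its log2 ratio of 7.80 became 1.83 with all 63 cells.

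**Figure D4:**
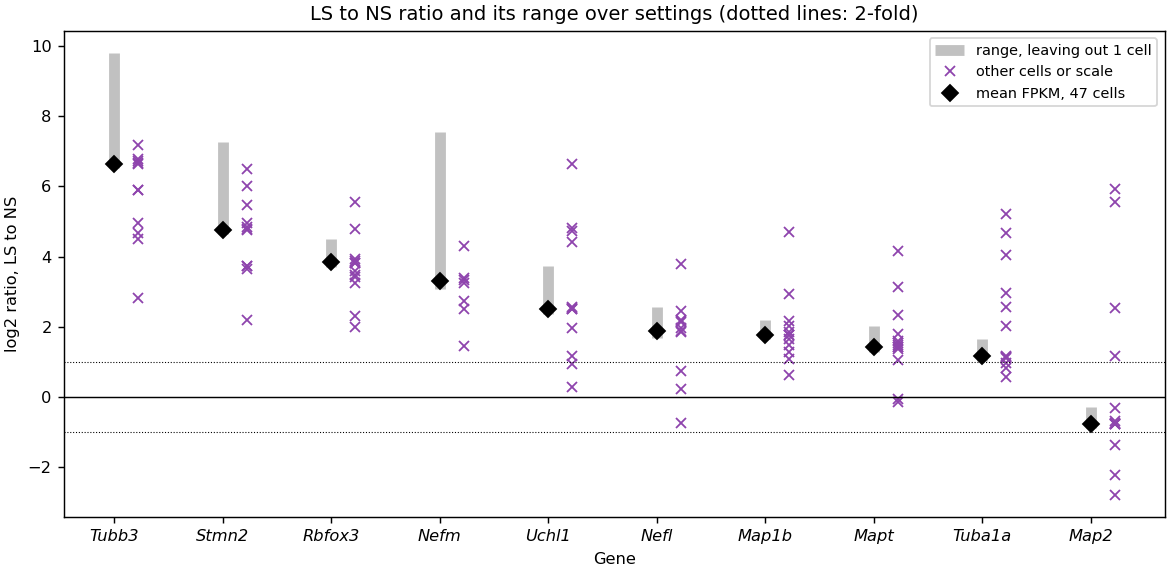
Black diamonds give the log2 ratio of mean FPKM, LS to NS, over 47 cells; grey bars give its range when 1 cell is left out, and crosses the other settings of cells or scale that gave a finite value. Dotted lines mark 2-fold; Map2 has crosses on both sides of 0, from -2.78 to 5.92.

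Pooled reads showed how little sequence stood behind some NS values. The NS cells together held 12 reads of Nefm (exact Poisson 95% interval 6.201 to 20.96), 23 of Tubb3 (14.6 to 34.5), 84 of Stmn2, 105 of Rbfox3 and 109 of Nefl. Map2 had 2839 and Tuba1a 2099 reads in NS cells, and LS cells had at least 1901 reads of each gene. NS_12, the library with mostly even read numbers, held 74 of the NS reads of Stmn2 and 1064 of those of Tuba1a. A read counts for more FPKM in a short gene: the exon length behind the FPKM was 16449 bases for Map2 and 11852 for Map1b, against 1868 for Tubb3, 1647 for Tuba1a and 1632 for Uchl1. A single read of Tuba1a in NS_8 stood for 1.84 FPKM, and a single read of Tubb3 in NS_14 for 0.674 FPKM.

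Within LS cells the means fell in the order Tuba1a, Uchl1, Tubb3, Mapt, Rbfox3, Map1b, Stmn2, Nefl, Map2 and Nefm, from 328 to 7.10 FPKM. FPKM is per exon length, and that length depends on the annotation: for Map1b it was 11852 bases here and 15846 in GENCODE M21. The order is therefore approximate, and the values of Tuba1a, Tubb3 and Uchl1 carry the limits given above. Each of the 9 differences between neighbors in this order was smaller than the SD between cells of the higher gene. Mapt, Rbfox3 and Map1b lay within 4 FPKM of each other, and Rbfox3 was above Map1b in 14 cells and below it in 20. The most uneven step was from Map2 to Nefm, with Map2 above in 28 of 35 cells and below in 6.

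Over the 35 LS cells the genes mostly varied together. Of the 45 pairs, 44 had a Pearson correlation of log2(FPKM + 1) above 0, with a median of 0.46 (Spearman 0.40) and a highest of 0.84 for Uchl1 and Mapt. Tuba1a was the loosest, with a median of 0.23 over its 9 pairs and -0.05 with Map2, and Nefm had 0.30. These are descriptions over cells that share depth, background and amplification. LS_43, LS_13 and LS_39, with reads of 2, 4 and 4 of the genes, enter every pair, mostly at 0. No value for pairs of other genes is set beside these, so varying together is not shown to be particular to the 10 genes. On the linear FPKM scale the median was 0.24. With log2 depth the correlations of the 10 genes ran from -0.14 (Map2) to 0.26 (Tuba1a), and with log2(mean Olfr FPKM + 0.1) from -0.41 (Map1b) to 0.12 (Map2). With the number of genes above 1 FPKM they ran from -0.23 (Tuba1a) to 0.51 (Map2), with 0.34 for Map1b and 0.31 for Nefm. The part of these measures in the shared variation was not tested.

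**Figure D5:**
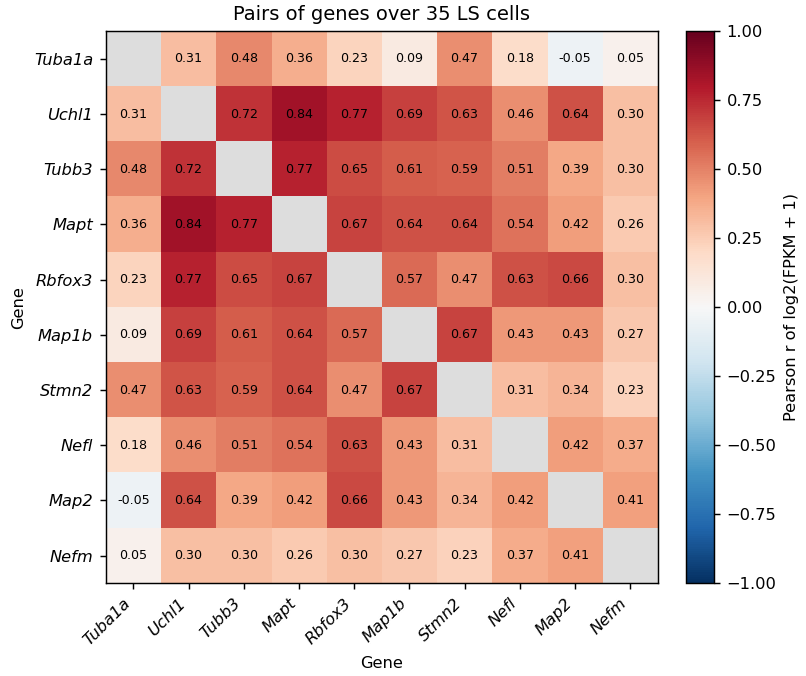
Squares give Pearson's r of log2(FPKM + 1) for each pair of the 10 genes over 35 LS cells, in order of mean level. Uchl1 and Mapt reach 0.84, and the row of Tuba1a is the palest, down to -0.05 with Map2.

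Of the 6122 genes detected in at least 50% of LS cells, those most like Tubb3 over the 35 LS cells were Phactr1 (r = 0.84), Syt11 (0.82) and Nsg2 (0.82). For Rbfox3 they were Syn1 (0.85), Ncdn (0.84) and Cyp46a1 (0.81), and for Map2 they were Gas7 (0.83), Cyp46a1 (0.76) and Rasgrp1 (0.75). These are the highest of many correlations and carry no test.

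Of 18 further pan-neuronal genes, 12 were past 2-fold toward LS and none toward NS, beside 38.6% and 36.3% of all genes (44.2% toward LS for genes detected in at least 50% of LS cells), with a median log2 ratio of 1.77. They had a read in 84.3% of gene and cell combinations in LS cells and in 37.96% in NS cells. Nrgn, a calmodulin-binding protein of dendrites, had means of 372 and 47.2 FPKM, Snap25 of the synaptic vesicle fusion machinery 266 and 98.8, and Gap43 of growing axons 63.1 and 0.0747, from a single NS read. Of 12 genes of axonal transport and the membrane skeleton, 4 were past 2-fold toward LS and 3 toward NS, both below the shares of all genes, 38.6% and 36.3%. The motor gene Kif5c stood at 25.7 and 2.27 FPKM, and Kif5a at 22.3 and 45.9.

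Of 12 genes used by nearly all cells, 4 were past 2-fold toward LS, below the 38.6% of all genes, and none toward NS, beside 36.3%, with a median log2 ratio of 0.63. Actb had means of 1463 and 692 FPKM, with a read in all 47 cells. The list had a read in 95.2% of combinations in LS cells and in 71.5% in NS cells, and the part of this general difference in the values of the 10 genes was not tested.

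Cell type markers differed between the groups too. By the summed FPKM of Slc17a7 and Neurod2 (excitatory neurons) against Gad1 and Gad2 (inhibitory neurons), 30 of 35 LS cells had higher excitatory and 4 higher inhibitory markers, and 1 had none of the 4 genes. Of the 12 NS cells, 2 had higher excitatory and 6 higher inhibitory markers, and 4 had none. In the 4 LS cells with higher inhibitory markers, Tuba1a had a mean of 502 FPKM, Tubb3 58.6, and Nefl 1.498 with a read in 1 cell, against 305.5, 152 and 31.5 in the 30 with higher excitatory markers.

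Summed over whole lists, the 6 inhibitory markers reached a median of 1.54 FPKM (0 to 1425) in LS and 41.5 (0 to 1348) in NS cells. Dlx6 had a read in 2 LS cells and in no NS cell. The 6 excitatory markers had medians of 741 (28.7 to 1392) and 208 (0 to 3318), with a read of Neurod6 in 4 LS cells and in no NS cell. Astrocyte markers (7 genes) had medians of 93.0 (1.11 to 1049) and 93.9 (0 to 1567). Oligodendrocyte markers (8 genes) had 16.01 (0 to 237) and 61.9 (0 to 1136). Olig1 had a read in no LS cell and 1 NS cell, and Olig2 in 2 LS cells and no NS cell.

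The 2 precursor markers Pdgfra and Cspg4 had medians of 0 (0 to 9.39) and 6.07 (0 to 270). Microglia markers (6 genes) had medians of 301 (0 to 2931) and 554 (0 to 9637), and those of endothelium and mural cells (5 genes) 53.3 (0 to 1491) and 19.4 (0 to 469). Cldn5 had a read in 4 LS cells and in no NS cell. Blood markers (4 genes) had a median of 0 in both groups and reached 61741 and 53.8 FPKM. Their part in the values of the 10 genes was not tested.

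Restricted to cells of low background, 31 LS and 3 NS, 6 of the 10 genes were past 2-fold toward LS and Map2 was past 2-fold toward NS. Nefl and Nefm were counted among the 6 and had no read in any of the 3 NS cells. Marker class differed as well: 27 of these 31 LS cells and 0 of the 3 NS cells had higher excitatory markers, and 2 NS cells had higher inhibitory markers. In that set 75.2% of all genes with a read were past 2-fold toward LS and 13.4% toward NS. A gene with an LS read and no read in the 3 NS cells counted as past 2-fold. These NS cells had 1934 to 3499 genes above 1 FPKM, beside a median of 5824 in the 31 LS cells. The share of the 10 genes toward LS was below 75.2%, which does not rank them against genes of like detection. Rbfox3 had means of 49.9 and 4.62 FPKM there, Tubb3 130 and 5.10, and Map2 12.4 and 85.3. With all 63 cells, 7 of 10 were past 2-fold toward LS beside 36.6% of all genes.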

How the data were processed

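Somata of V1 layer 2/3 cells were processed by Smart-seq2, which copies full-length mRNA of 1 cell and amplifies it by PCR without molecular identifiers. The authors aligned reads to GRCm38 with STAR 2.5.3a, counted them per gene with featureCounts and deposited FPKM values, unfiltered by cell, for 63 cells and 20183 protein-coding genes. Columns of cells not used numbered 0, and 4 rows with a repeated symbol were left out. The 10 genes and all lists were chosen with earlier results of these data known.

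Following the study, cells of low cDNA concentration (2), with fewer than 1000 genes above 1 FPKM (1), with a mitochondrial share above 25% (0 by the deposited values), or with all markers of an astrocyte (Gfap, S100b, Aqp4; 10), oligodendrocyte (Olig1, Olig2, Mbp; 1) or joint excitatory and inhibitory score (2) were removed, in this order. This left 47 cells, fewer LS cells than the study kept. No doublet caller was run.

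Whole reads were recovered from FPKM steps with GENCODE M21 exon lengths (12097 genes) or lengths solved from the values (6026), while 2056 genes stayed unsolved. Of values below 200 reads in these genes, 99.999% came out as whole numbers (tolerance 0.01 reads and the rounding of the table), and 98.8% of values above 0 lay in them. Depth is the sum of these reads. The procedure was tested on simulated data.

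Groups were compared by mean FPKM over cells and by shares of cells with a read, with exact binomial (Clopper-Pearson) and Poisson intervals at 95% that cover counting error only and not the spread between mice or days. No test was made, since cells are not replicates. Named genes were the 10 genes, list members, and the 3 best correlates of Tubb3, Rbfox3 and Map2. Computations used scipy 1.17.1, pandas 2.3.3 and numpy 2.4.6 under Python 3.11.15, and figures matplotlib 3.10.9.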

Additional observations from a re-analysis of the deposited data

How the results depend on the processing

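The counts of genes past 2-fold kept within 1.5 times of 9 toward LS in all settings but the 4-fold limit, which left 5 (29.5% of all genes). Toward NS the count was 0 and became 1 (Map2) in cells with a mean Olfr level below 1 FPKM, with pooled reads, and in cells with higher inhibitory markers. The last setting, and for correlations the LS cells with at least 3000 genes or with higher excitatory markers, were chosen after seeing the data. The share of all genes toward LS was 38.6%, but 75.2% in cells of low background and 89.1% by medians, the latter over 6411 genes. In each of these, a gene with an NS value of 0 and an LS value above 0 counted as past 2-fold. Ratios changed sign for Nefl (-0.74, higher inhibitory markers, with a read in 1 LS and 1 NS cell) and Mapt (-0.13 at low background and -0.0515 with higher inhibitory markers). The ratio of Map2, -0.75 by mean FPKM, was above 0 in 4 of 13 settings, up to 5.92. Counted above the highest Olfr gene of the cell, genes per cell fell to 4.03 in LS and 0.50 in NS cells. The median pair correlation was 0.24 on the linear scale. The causes were not tested. Leaving out each cell in turn gave 9 to 9 genes toward LS, 0 to 0 toward NS, 8.85 to 9.09 genes with a read per LS cell, 3.45 to 4.18 per NS cell, and median pair correlations of 0.41 to 0.49. Medians gave no finite ratio for 7 of the genes, since their NS median was 0. No paired analysis was possible because the numbers shared by LS and NS cells only name cells and no test was made. A gene without a read may still be expressed. Dates and mice are not in the labels, so batch and group cannot be told apart.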

Other observations

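The 5 NS cells outside the filters enter no comparison above apart from the setting with all cells. NS_17, with 786086 reads and 10340 genes above 1 FPKM, was the only NS cell with reads of all 10 genes, among them Tubb3 at 267, Rbfox3 at 80.7 and Uchl1 at 532.5 FPKM, each above the mean of LS cells. NS_5 held 888 FPKM of Uchl1 and 46.6 FPKM of Map2 with no read of the other 8 genes, at a mean Olfr level of 11.2 FPKM. NS_3 held 171 FPKM of Nefl, above all 35 LS cells used, and no read of Nefm. Among LS cells outside the filters, LS_1 had reads of Map2, Map1b and Tuba1a alone (13.03, 9.54 and 3.10 FPKM), and LS_16 of Map2 and Tuba1a alone (34.5 and 195 FPKM).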
